A study of Mus musculus with 46 samples.

Results

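The genes described here are epithelial genes of cell adhesion, cell junctions and splicing, which belong to the programme that fibroblasts switch on when they turn epithelial. The 10 genes are Cdh1, Epcam, Cldn3, Cldn4, Cldn6, Cldn7, Ocln, Esrp1, Dsp and Tjp3, taken as a named list out of 22367 protein-coding genes of the GENCODE vM1 annotation on the mouse genome build mm9. A gene was given every peak that touched its window, from 1 kb before its start to 1 kb past its end. Its level in a library was the sum of the scores of those peaks, in tags per 10 M tags of the library. A peak is a stretch with more ChIP-Seq tags than the input library.

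In a mesenchymal-to-epithelial transition (MET), cells that lie loosely in matrix take up cell-cell contacts. E-cadherin, the product of Cdh1, holds neighbouring cells together at adherens junctions, claudins and occludin seal the tight junctions above them, and desmoplakin ties desmosomes to keratin filaments. In fibroblasts the repressors Snai1, Snai2, Zeb1 and Zeb2 bind E-boxes at epithelial promoters. H3.3 is a histone variant placed in chromatin outside of replication, mostly over transcribed genes and regulatory sites. H3K4me3, the trimethylation of histone H3 at lysine 4, marks active and poised start sites, whereas H3K36me3, at lysine 36, is laid down over gene bodies during transcription.

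All cells came from mouse embryonic fibroblasts (MEFs) carrying an Oct4-GFP reporter, in which EGFP follows the endogenous Oct4 stop codon, except ESD3, a line of mouse embryonic stem cells. For reprogramming, MEFs received Oct4, Sox2, Klf4 and c-Myc from pMXs retroviruses and were taken unsorted on day 0 (D0) and day 3 (D3), and as induced pluripotent stem cells (iPSCs). On days 6 and 9 they were sorted by the fibroblast surface protein Thy-1 (D6T-, D6T+, D9T-, D9T+) and on days 12 and 16 by the early pluripotency antigen SSEA-1 (D12S+, D12S-, D16S+, D16S-). The study treats Thy-1- and SSEA-1+ cells as the successful route and the other fraction of each day as the unsuccessful one. For transdifferentiation to blood cells, MEFs received the SLBR factors, Scl, Lmo2, Bmi1 and Runx1, were grown on OP9 stromal cells, and were taken as MEF, on day 4 (D4) and as sorted cKit+ and cKit- cells. H3.3 was measured in all 16 of these states, and H3K4me3 and H3K36me3 in the 7 states of the successful route, D0 to iPSCs. Each group was 1 library of bulk cells, so no value has a replicate. A lower level in a mixed population may come from fewer cells that carry the histone at a gene or from less of it per cell, which cannot be told apart. Intervals given below are exact 95% Poisson intervals on the tags and cover counting error only.

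The libraries held 13.2 to 91.8 M tags, but the share of tags in peaks differed far more. It was 14.0% in iPSCs and 19.1% at D0 for H3.3, 22.0% at D12S- but 6.93% at D12S+, and 4.88% at D16S+. It was 37.2% in D4 and only 1.65% in cKit+ and 2.31% in cKit-. For H3K36me3 it ranged from 1.07% in D12S+ to 42.4% in D9T-, so a missing peak in a poor library is weak evidence. All 8 fibroblast markers, Col1a1 and Thy1 among them, carried H3.3 peaks in D0 and MEF, against 61.9% and 53.3% of all genes. In iPSCs and ESD3, 8 of 8 pluripotency markers did, against 61.2% and 52.1%. In cKit+ cells 3 of 7 hematopoietic markers and 5 of 8 fibroblast markers had peaks, against 33.2% of all genes. The peaks over hematopoietic markers lay over Runx1 (117), Tal1 (6.05) and Gata2 (3.98), and Ptprc, Gata1, Kit and Itga2b were without one. In MEF, Runx1 held 687 and Gata2 23.6, and Tal1 had no peak. Spi1, also listed, was not found under that name in the annotation.

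The promoters of the genes were searched for short motifs. The RefSeq promoter table (build GRCm38.p6) had entries for 8 of the 10 genes and none for Cdh1 and Esrp1. The 250 bases before the start site of 3 genes are printed 5′ to 3′ on the gene's strand, because they stand for a promoter with E-boxes at 2 places, one with a single E-box beside the start, and one with none but several GC boxes. Capitals mark the E-box CACCTG, the core bound by Snail and Zeb proteins, and the GC box GGGCGG, bound by Sp and Klf proteins, on either strand.
Epcam, chr17:87635729-87635978, plus strand: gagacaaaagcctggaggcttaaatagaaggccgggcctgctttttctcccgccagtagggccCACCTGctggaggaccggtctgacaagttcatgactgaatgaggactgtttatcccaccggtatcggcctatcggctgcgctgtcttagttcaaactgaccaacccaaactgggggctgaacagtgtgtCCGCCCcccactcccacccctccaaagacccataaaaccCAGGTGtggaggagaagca
Cldn4, chr5:134946935-134947184, minus strand: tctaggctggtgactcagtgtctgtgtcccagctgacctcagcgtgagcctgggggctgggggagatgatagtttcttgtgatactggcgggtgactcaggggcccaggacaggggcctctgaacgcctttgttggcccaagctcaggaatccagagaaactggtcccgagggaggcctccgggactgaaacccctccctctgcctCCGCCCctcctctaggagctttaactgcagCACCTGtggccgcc
Dsp, chr13:38151044-38151293, plus strand: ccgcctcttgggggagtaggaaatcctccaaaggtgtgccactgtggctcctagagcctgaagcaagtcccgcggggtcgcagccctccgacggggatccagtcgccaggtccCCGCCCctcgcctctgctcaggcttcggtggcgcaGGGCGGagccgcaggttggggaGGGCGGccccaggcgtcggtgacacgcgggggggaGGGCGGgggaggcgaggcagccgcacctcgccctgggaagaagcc
In Epcam the E-boxes began at -187 and -19 and the GC box at -58, counted from the RefSeq start site. In Cldn4 the E-box began at -14 and the GC box at -44. Dsp had no CACCTG and 4 GC boxes. Counting any of the 11 starts listed for the 8 genes, CACCTG was found in Epcam, Cldn4, Cldn6, Cldn7, Ocln and Tjp3 and not in Cldn3 and Dsp. GGGCGG was found in all of the 8 but Tjp3. Of 32817 promoters of the same length in the table, 17.2% held CACCTG and 32.7% held GGGCGG. These shares are per start, so a gene with several starts had more places to hold a motif. The grainyhead motif AACCNGTT, present in 1.78% of promoters, was in none of the promoters of the 8 genes. Each stretch was found letter for letter beside its gene in mm9, so the peaks over it could be read there. H3K4me3 peaks touched the Epcam and Dsp stretches in 6 of 7 libraries and the Cldn4 stretch in 5, D0 among them each time, and H3K36me3 peaks touched none.

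H3.3 sums over 8 of these genes were higher in iPSCs than in D0. In D0, 7 of the 10 genes had an H3.3 peak, against 61.9% of all genes, and in iPSCs all 10 did, against 61.2%. The 3 genes with a peak in iPSCs and none in D0 were Cldn3, Cldn6 and Esrp1, a change that 8.84% of all genes made. Counting a gene as higher when its sum was at least 2 times larger, or when it had a peak against none, 8 of the 10 were higher in iPSCs than in D0, compared with 17.4% of all genes. None was lower, compared with 29.4%. The median difference, log2 of the sum plus 1 in iPSCs minus that in D0, was 3.43 over the 10 genes and -0.55 over the 15815 genes with a peak in either library. Genes with a peak in both libraries shifted by a median of -0.53 in log2. When each sum was divided by its library's score in peaks, that shift was -0.08 and 8 of the 10 genes were higher, against 21.3% of all genes. With H3.3 peaks of 4 times the input or more alone, 4 of the 10 had a peak in iPSCs, against 29.8% of all genes, and 3 were higher in iPSCs than in D0, against 7.11%.

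**Figure D1:**
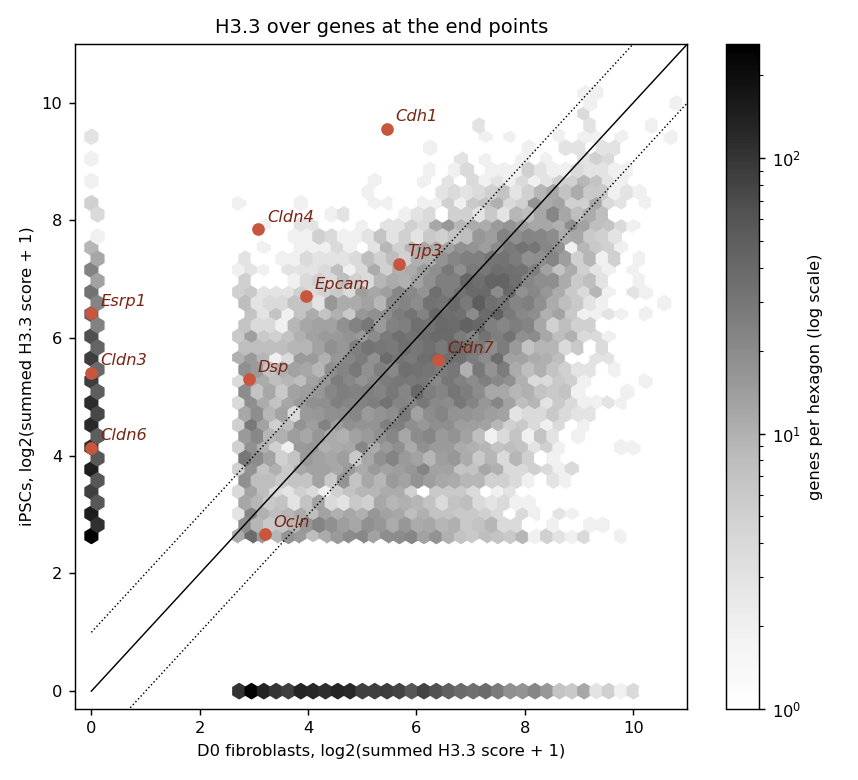
Summed H3.3 score of each gene in D0 (x axis) and iPSCs (y axis), both as log2 of tags per 10 M plus 1; hexagons hold all genes with a peak in either library and red points the 10 junction genes. Dotted lines mark a change of 2 times; Cdh1 (42.7 to 755), Cldn4 (7.42 to 230), Epcam, Tjp3 and Dsp lie above the upper line, Cldn7 and Ocln near the diagonal, and Cldn3, Cldn6 and Esrp1 at the left edge, with no peak in D0.

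A gene was counted as bound from the first library of the successful route after which it had a peak in every later one, whether or not it had earlier peaks. Cdh1, Epcam, Cldn7, Dsp and Tjp3 were bound from D0 on, 5 of 10 genes against 32.4% of all genes. Esrp1 was bound from D3, Ocln from D6T-, Cldn4 and Cldn6 from D9T- and Cldn3 from D12S+. Some of these starts rest on a single small peak. Dsp in D0 and Esrp1 in D3 each had 1 peak of 0.500 kb with 17 tags, that of Esrp1 mostly outside the window. The only Cldn4 peak in D16S+ had 0.163 of its score of 16.3 inside the window. With a peak counted by its midpoint, Cldn4 was bound only from iPSCs on. With equal numbers of top-scoring peaks, Epcam was bound from D6T-, Esrp1 from D9T- and Cldn4 from D12S+. Dsp and Ocln then had no peak in iPSCs, and Cdh1, Cldn3, Cldn6, Cldn7 and Tjp3 kept their starts.

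At the genes called higher in iPSCs, peaks covered more kb there than in D0, while the score per kb of peak lay in a similar range. Over the 7 genes with peaks in D0, the score per kb of peak was 12.3 to 16.3 in D0, and over all 10 it was 10.7 to 15.2 in iPSCs. A stretch must pass a limit over input to be called a peak, so the density outside peaks is not seen. The iPSC library was also deeper, at 41.2 M tags against 27.0 M in D0, and the part of depth in the lengths was not tested. At Cdh1, peaks covered 2.61 kb in D0 and 55.9 kb in iPSCs, including a stretch that ran past the gene end. Levels of different genes are compared per kb of window. With whole peaks, Cldn7 was highest in D0 at 16.4, with Tjp3 next at 2.49, and in iPSCs Cldn4 was highest at 60.4, with Cldn3 next at 12.8. With only the part of each peak inside the window, Cldn7 held 5.66 and Tjp3 2.16 in D0. On that measure Cldn4 was still the highest in iPSCs, but close to Cdh1 at 9.79 and Cldn7 at 9.52, while Cldn3 fell behind them at 6.42. Ocln was last in iPSCs at 0.0919 either way.

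Cdh1, which encodes E-cadherin (chromosome 8, 109127251 to 109194146, plus strand), carried the largest sum of the 10 in iPSCs. Its H3.3 sum was 42.7 at D0, 20.7 at D3, 71.0 at D6T-, 98.2 at D9T-, 211 at D12S+, 276 at D16S+ and 755 in iPSCs. After the low point at day 3, each library of the successful route stood above the one before it, and no interval of one library met that of the next. ESD3 cells held 556, and the unsuccessful fractions 30.3 (D6T+), 38.5 (D9T+), 205 (D12S-) and 123 (D16S-). The sum in iPSCs was 17.7 times that in D0, a log2 ratio of 4.14 (counting interval 3.88 to 4.41). In D0 the 3 peaks lay inside the gene, 19.4 to 52.9 kb past the start, and none lay within 1 kb of the start. In D12S+ 14 peaks covered 20.2% of the window, and in iPSCs 12 peaks covered 71.6%, the longest from 0.472 to 20.0 kb past the start. These long peaks were shallow, at 3.03 times the input in iPSCs against 4.57 in D0. With peaks of at least 4 times the input alone, the log2 ratio turned to -2.00, as the long stretches dropped out.

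**Figure D2:**
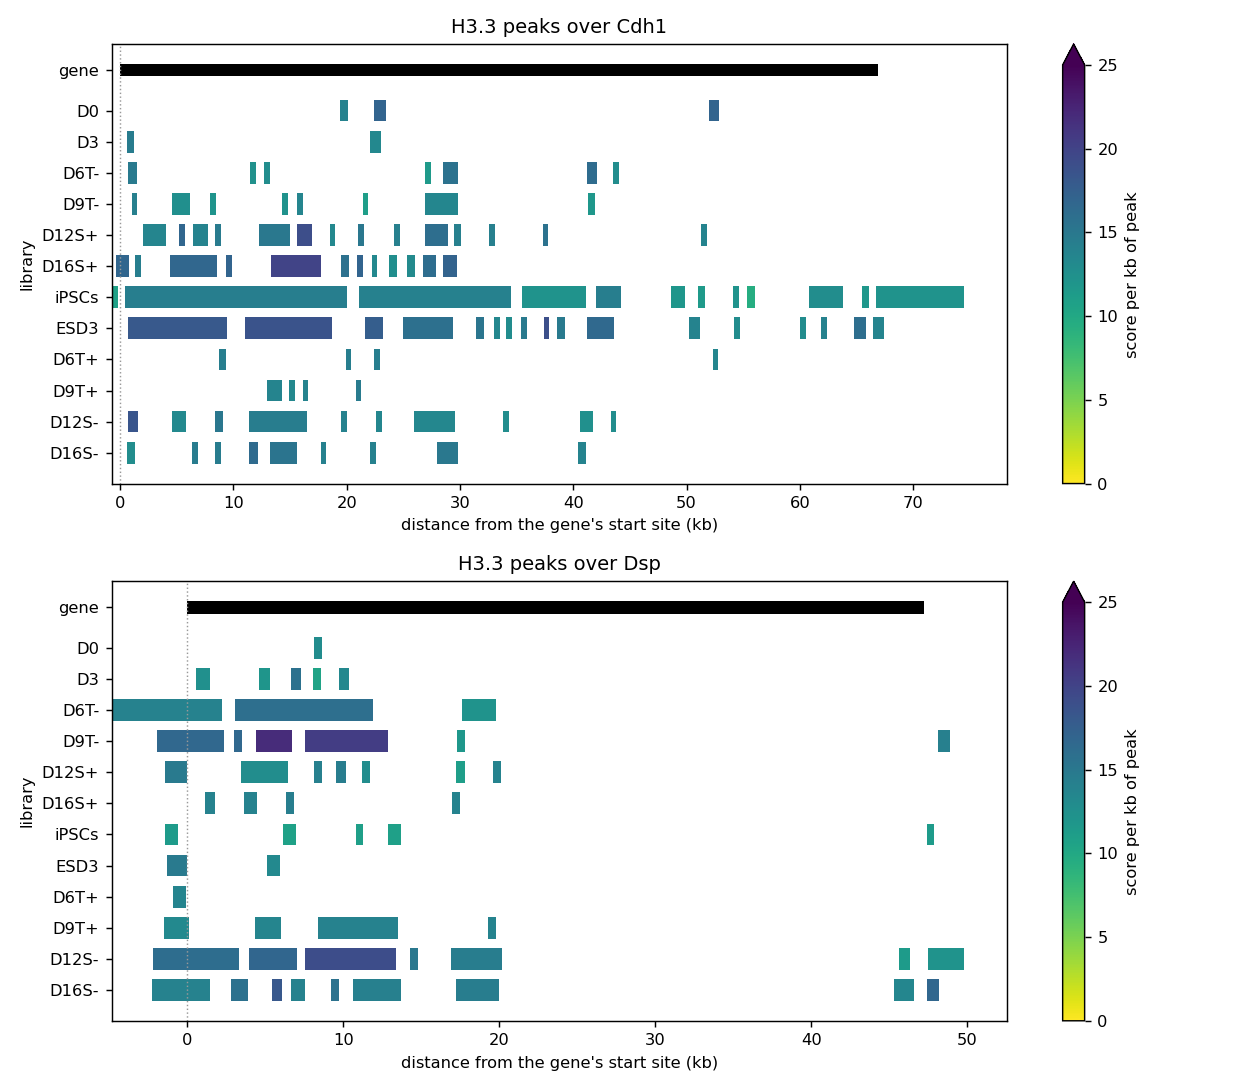
H3.3 peaks over Cdh1 (top) and Dsp (bottom) in the 12 reprogramming libraries, drawn to scale by distance from the gene's start site in kb; each bar is 1 peak, its colour the score per kb of peak, and the black bar the gene. Cdh1 fills from scattered peaks in D0 to 55.9 kb of peaks in iPSCs, whereas Dsp is covered most in D6T-, D9T-, D12S- and D16S-, over the first 20 kb.

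Epcam encodes an adhesion molecule of epithelia and stem cells that binds the same protein on the next cell, and lies at chromosome 17, 88035319 to 88050446, on the plus strand. Its H3.3 sum was 14.5 at D0, 6.19 at D3, 44.5 at D6T-, 76.8 at D9T-, 56.5 at D12S+, 47.0 at D16S+ and 104 in iPSCs. It was thus above D0 in every library of the route from day 6 on. The unsuccessful fractions had no peak at D6T+, 27.6 at D9T+, 43.5 at D12S- and 78.5 at D16S-. The single peak of D0 and that of D6T- began less than 1 kb past the start, as did the longest peak of iPSCs, which ran to 5.81 kb. The iPSC sum was 7.14 times that of D0 (log2 2.84, interval 2.36 to 3.31). Among equal numbers of peaks ranked by score per kb, however, the log2 ratio was -0.48. ESD3 cells held only 6.94, below D0.

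Esrp1, a splicing regulator that sets the epithelial forms of many transcripts (chromosome 4, 11259080 to 11313930, minus strand), had no H3.3 peak in D0. Its sum was 6.77 at D3, 12.5 at D6T-, 23.0 at D9T-, 62.0 at D12S+, 54.1 at D16S+ and 84.6 in iPSCs. It rose over the route with a single small step back at day 16, where the intervals overlapped (52.1 to 73.2 and 44.1 to 65.7). The other fractions held no peak (D6T+), 7.12 (D9T+), 14.1 (D12S-) and 16.8 (D16S-). Most of the H3.3 in D12S+ and iPSCs lay before the gene and not over it: the D12S+ peak ran from -3.14 to 0.754 kb and the largest iPSC peak from -3.55 to -0.503 kb relative to the start. No other protein-coding gene was touched by these peaks.

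The 4 claudins, which form the strands of tight junctions, did not move together. Cldn4 (chromosome 5, 135420996 to 135422804, minus strand) had 7.42 at D0, no peak at D3 and D6T-, 6.80 at D9T-, 105 at D12S+, 16.3 at D16S+, 230 in iPSCs and 201 in ESD3. Most of the signal in D12S+ and iPSCs lay past the gene: in iPSCs a peak from 2.11 to 14.6 kb past the start scored 197.9, and it also covered the neighbouring gene Wbscr27. A second iPSC peak, from -1.14 to 1.54 kb, scored 32.3 over the promoter and the gene itself, where D0 had a peak of 7.42. The log2 ratio of iPSCs to D0 was 4.96 with both peaks and 2.12 without the one that touches Wbscr27. Cldn3 (chromosome 5, 135462084 to 135463342, plus strand), the neighbour of Cldn4, had no peak at D0, D3 and D9T-, 10.1 at D6T-, 20.0 at D12S+, 6.40 at D16S+ and 41.6 in iPSCs. Its highest level was in an unsuccessful fraction, 83.6 in D12S-.

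For Cldn6 and Cldn7 the window took up chromatin of other genes. Cldn6 (chromosome 17, 23816332 to 23819413, plus strand) had no peak in D0 and D6T- and 15.9 to 27.6 in the other libraries of the route, with 16.6 in iPSCs. In D6T+, D12S- and D16S- it reached 89.8, 147 and 159, but a peak that began over 5 kb before the start and also covered Tnfrsf12a and Hcfc1r1 made up most of that. When peaks touching another gene were left out, D6T+ held 8.15, D12S- 24.1 and D16S- none, and iPSCs held none either, since its peak touched Cldn9. Cldn7 (chromosome 11, 69778281 to 69781387, plus strand) was the only gene with its highest level on the route in D0, at 83.7, against 48.6 in iPSCs, a log2 ratio of -0.78. The whole D0 value was 1 peak that reached into Rai12, which lies within 1 kb of the gene end. Counting only the part of each peak inside the window, the values were 28.9 and 48.6 and the log2 ratio 0.75. Both of these peaks touched Rai12, and without such peaks neither library had one.

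Ocln, encoding occludin (chromosome 13, 101266462 to 101322673, minus strand), had little H3.3 on the route, 8.16 at D0, none at D3, 29.0 at D6T-, 28.7 at D9T-, 6.22 at D12S+, 21.6 at D16S+ and 5.35 in iPSCs. The D0 and iPSC intervals overlapped (5.11 to 12.4 and 3.35 to 8.10). Its highest levels were in D12S- at 74.6 and D16S- at 63.2, and ESD3 had no peak. Tjp3, which encodes the scaffold protein ZO-3 (chromosome 10, 80735952 to 80754012, minus strand), already held 49.9 in D0. It had 32.2 at D3, 80.9 at D6T-, 110 at D9T-, 88.5 at D12S+, 30.7 at D16S+ and 153 in iPSCs, 3.06 times D0 (log2 1.62, interval 1.35 to 1.88). Part of its window belongs to Apba3, but the D0 and iPSC peaks touched no other gene.

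Dsp, encoding desmoplakin (chromosome 13, 38243197 to 38290446, plus strand), had its highest H3.3 sums of the successful route in D6T- and D9T-, and lower ones in the later libraries. Its sum was 6.49 at D0, 43.2 at D3, 266 at D6T-, 259 at D9T-, 96.9 at D12S+, 34.9 at D16S+ and 38.4 in iPSCs. The unsuccessful fractions were low on day 6 and high on day 12, with 11.4 at D6T+, 123 at D9T+, 343 at D12S- and 216 at D16S-. The successful fraction was thus higher on days 6 and 9 and lower on days 12 and 16. In D6T- one peak ran from -4.83 to 2.21 kb and the next from 3.04 to 11.9 kb past the start, and the first also touched Gm10129, a gene that lies in the window. Without the peaks that touch it, D6T- held 168 and D12S- 254.

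**Figure D3:**
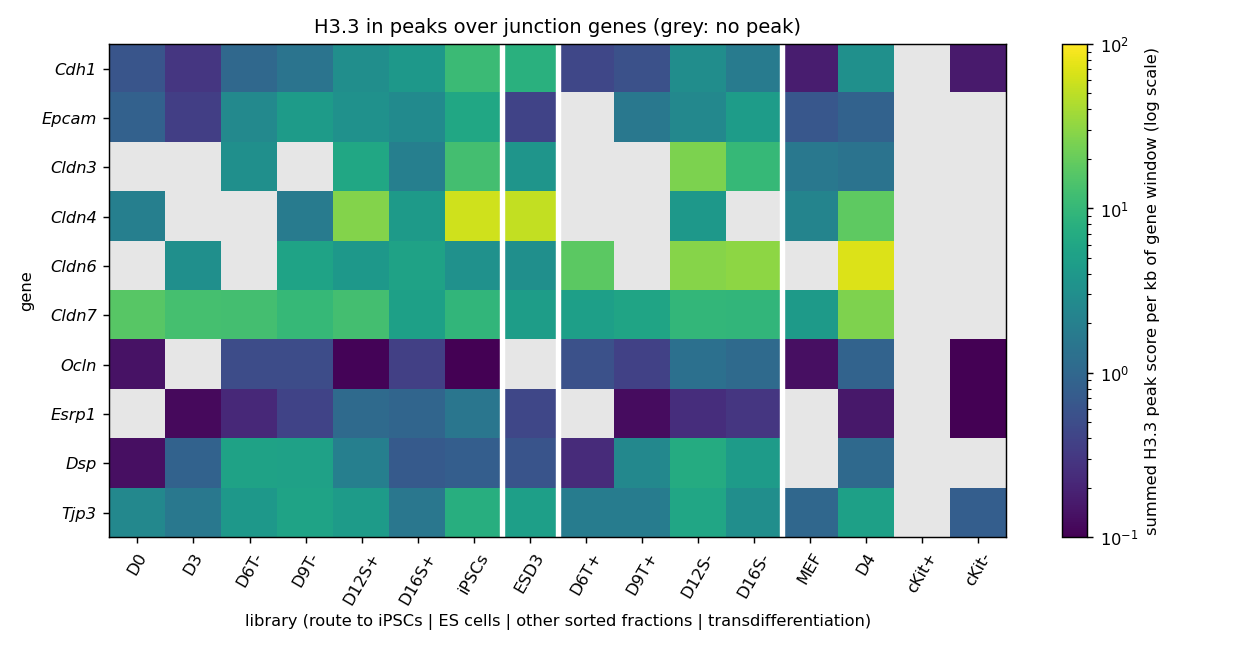
Summed H3.3 score per kb of gene window (colour, log scale) for the 10 genes (rows) in the 16 libraries (columns), grouped by white lines into the successful route, ESD3, the unsuccessful fractions and transdifferentiation; grey means no peak. Cdh1, Cldn4 and Esrp1 brighten towards iPSCs, Dsp is brightest in D6T-, D9T-, D12S- and D16S-, and the cKit+ column is grey for all 10 genes.

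To ask whether the gains belonged to the successful route, the fractions sorted on the same day were compared. On day 6, 7 of the 10 genes had a higher sum in D6T- than in D6T+, against 52.2% of all genes, and on day 9, 9 of 10 in D9T- against 41.1%. On day 12, 5 of 10 were higher in D12S+ than in D12S-, against 4.34% of all genes, and on day 16, 3 of 10 in D16S+ against 9.84%. Cldn4 was among those of day 12 through the peak over Wbscr27. Without it, Cldn4 held 8.22 in D12S+ against 15.2 in D12S-. Cldn4 was also among those of day 16, through a D16S+ peak at the edge of its window, with 0.163 of its score of 16.3 inside. Few genes of the genome were higher in the SSEA-1+ libraries, in which the share of tags in peaks was lower too. With sums scaled to each library's score in peaks, 6 of 10 were higher in D12S+, against 24.7% of all genes, and 6 of 10 in D16S+, against 22.4%. On all 4 days the successful fraction was higher for Cdh1 and Esrp1, 2 of 10 genes, against 0.590% of all genes. None of the 10 was lower on all 4 days, against 4.65%. For Cdh1 the log2 differences were 1.20, 1.33, 0.04 and 1.16 on days 6, 9, 12 and 16, so that on day 12 the fractions lay within counting error (192 to 230 and 188 to 223). For Esrp1 they were 3.75, 1.56, 2.06 and 1.63, that of day 6 against no peak in D6T+. Their mean was 2.25 ± 1.03 (SD, n = 4 days), a spread over days and sort markers and not over replicates. The Esrp1 values rest largely on peaks at the edge of its window. With a peak counted by its midpoint, Esrp1 had none in D9T- against 7.12 in D9T+. It then also had none in D12S+ against 14.1 in D12S-, whereas Cdh1 was still higher on all 4 days. The two-sided exact sign-flip test over the 4 days gave p = 0.125 for both genes, the smallest p that 4 days allow, and adjusting for the 10 genes can only raise it. Without day 16, whose D16S+ library had the lowest share of tags in peaks of the reprogramming libraries, Cdh1, Epcam, Cldn7 and Esrp1 were higher on the 3 remaining days, 4 of 10 genes against 1.19% of all genes. Without day 12, Cdh1 and Esrp1 alone were higher on the remaining days, 2 of 10 genes against 4.27%. With scaled sums, Cdh1, Epcam, Cldn7, Esrp1 and Tjp3 were higher on all 4 days, 5 of 10 genes against 4.70% of all genes.

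Dsp was higher in the successful fraction in the Thy-1 sorts and lower in the SSEA-1 sorts. It differed by 4.43 and 1.07 in log2 on days 6 and 9 in favour of the successful fraction, and by -1.81 and -2.59 on days 12 and 16. Tjp3 differed by 1.12, 1.58, -0.43 and -0.96 on the 4 days, and Epcam by 5.51, 1.44, 0.37 and -0.73. The lower values of Tjp3 and Epcam in the SSEA-1+ libraries turned with the scaling to the score in peaks: Tjp3 then held 165 in D12S+ against 70.1 in D12S- and 81.2 in D16S+ against 63.9 in D16S-, and Epcam 124 in D16S+ against 83.0 in D16S-. Dsp kept its direction, with 181 against 201 on day 12 and 92.3 against 228 on day 16. Ocln was lower in the successful fraction on days 12 and 16, by 3.39 and 1.51 in log2. For these genes the exact sign-flip p ranged from 0.375 to 0.875.

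**Figure D4:**
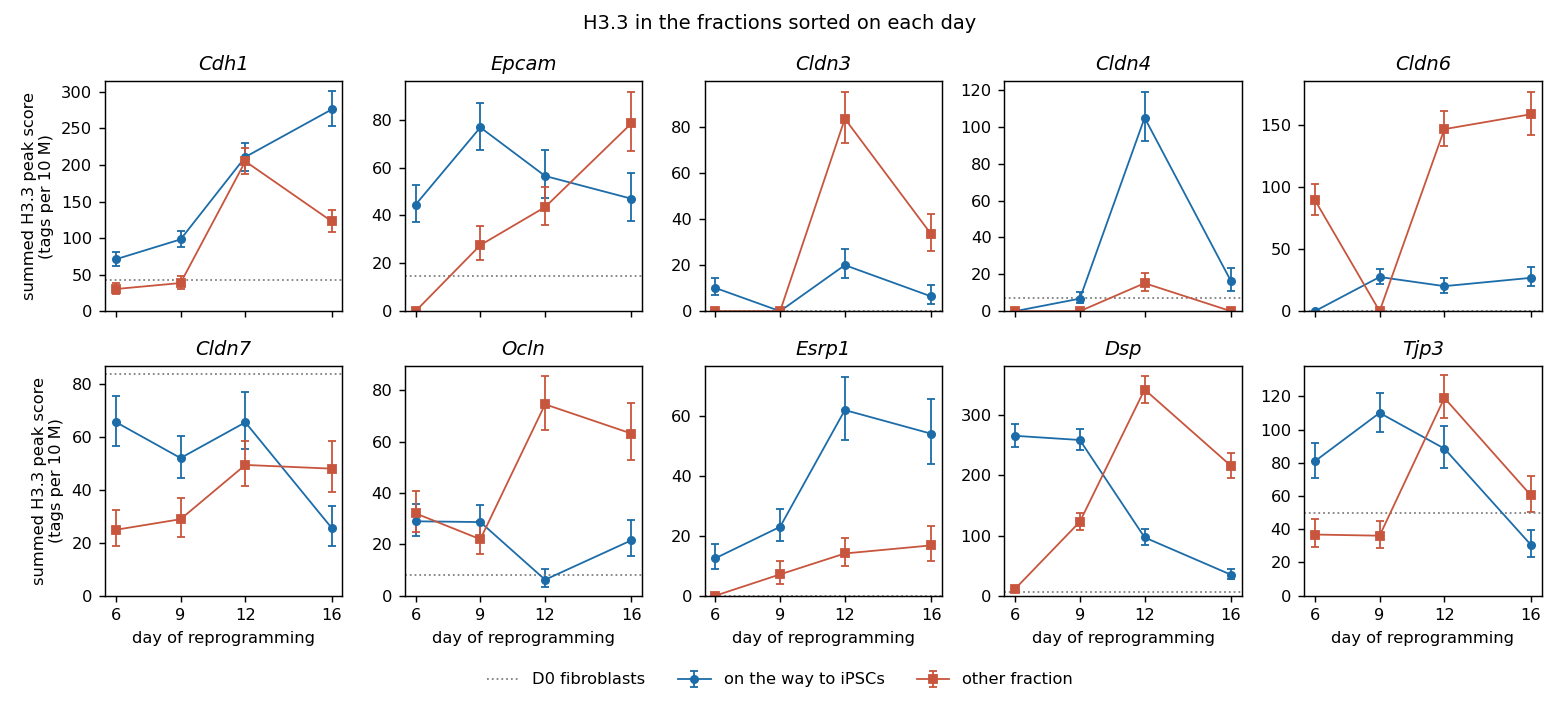
Summed H3.3 score (y axis, tags per 10 M) of each gene in the successful (blue circles) and unsuccessful (red squares) fraction by day of reprogramming (x axis), 1 library a point, with 95% Poisson counting intervals; the dotted line is D0. Blue stays above red on all 4 days for Cdh1 and Esrp1, and in these unscaled sums the lines cross after day 9 for Dsp and Tjp3 and after day 12 for Epcam.

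Set against D0, the unsuccessful fractions also had higher H3.3 sums over some of these genes. All of these comparisons share the D0 library. On day 6, 5 genes were higher in D6T- than in D0, where 20.2% of all genes were, and 2 in D6T+, where 4.02% were. On day 9, 7 were higher in D9T-, against 14.8% of all genes, and 3 in D9T+, against 8.14%. On day 12, 7 were higher in D12S+, against 7.16%, and 9 in D12S-, against 23.6%. On day 16, 8 were higher in D16S+, against 5.96%, and 7 in D16S-, against 10.5%. Cldn4 was among the 8 through the D16S+ peak at the edge of its window. In ESD3, 6 were higher than in D0, against 9.97% of all genes, and Epcam, Cldn7 and Ocln were lower, against 44.9%. In the D12S- library 6 of 8 keratinocyte markers also had H3.3 peaks, where 63.5% of all genes did, with a summed score of 1520 against 299 in D12S+ and 427 in D0. In D16S- the sum was 734, against 206 in D16S+. The fibroblast markers differed more between the day 12 fractions, with 1500 in D12S- and 75.5 in D12S+. The basal keratins Krt5 and Krt14 were without a peak in D12S-, whereas Itgb4 and Sfn, which other epithelia also express, held 878 and 178. The part of other cell types in the D12S- and D16S- values, of Dsp, Ocln and Cldn3 among others, was not tested.

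The other histone marks were read over the same windows. H3K4me3 was on all 10 genes from the start: each had a peak in D0, against 70.2% of all genes, and in every library from D0 to iPSCs, against 49.2%. In D0 a peak lay over the start site itself in 8 of 10 genes, all but Cldn7 and Tjp3, against 61.4% of all genes, and in iPSCs in 9 of 10, against 58.2%. The start site here was the GENCODE gene start. The D0 peak of Cldn7 began 0.353 kb past it and covered a second RefSeq start 642 bases past it, so that step from 8 to 9 depends on the start used. H3.3 was over the start site of only Cldn4 and Tjp3 in D0, against 15.0% of all genes, and of Cldn4, Cldn7 and Tjp3 in iPSCs, against 16.1%.

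The amount of H3K4me3 changed less than that of H3.3. Between D0 and iPSCs it rose at least 2 times over Cdh1 and Cldn4, 2 of 10 genes against 4.06% of all genes, and fell so far over none, against 52.1%. At Cdh1 the sums were 74.6 at D0, 89.0 at D3, 155 at D6T-, 100 at D9T-, 169 at D12S+, 94.8 at D16S+ and 386 in iPSCs. In D0 all of this was 1 peak from -0.597 to 1.22 kb around the start, and in iPSCs 9 peaks reached 34.5 kb into the gene, 5.18 times the D0 sum. At Cldn4 the sum went from 21.2 at D0 to 94.0 in iPSCs, by way of 48.5 at D9T- and 59.8 at D12S+. Esrp1 held 109 in D0, where H3.3 had no peak, 204 in D9T- and 162 in iPSCs. At Dsp, H3K4me3 was highest at D6T- at 363, from 146 at D0, and lowest at D16S+ at 25.6, and Ocln held 170 at D0, 169 at D6T- and 91.0 in iPSCs. The share of tags in H3K4me3 peaks was 30.4% in D0, 34.8% in D6T-, 9.27% in D12S+, 3.71% in D16S+ and 12.7% in iPSCs. In D16S+ only 23.8% of all genes had a peak over the start site. The part of these shares in the lower sums of the later libraries, over these and all genes, was not tested. The median log2 difference of iPSCs to D0 was 0.34 over the 10 genes and -1.38 over genes with a peak in either library.

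H3K36me3 lay over more of the genes in iPSCs than in D0. Only Cldn7 and Tjp3 had a peak in D0, 2 of 10 genes against 49.7% of all genes, and both peaks touched the next gene, Rai12 and Apba3. In iPSCs 8 of 10 had one, all but Cldn3 and Ocln, against 34.7%, in a library with 2.88% of tags in peaks. A peak in iPSCs and none in D0 was found at 6 of 10, namely Cdh1, Epcam, Cldn4, Cldn6, Esrp1 and Dsp, compared with 3.08% of all genes. Cdh1 had a first peak of 0.500 kb in D16S+ and 11 peaks summing to 125 in iPSCs, 8 of them starting more than 50 kb past the start. Esrp1 had 23.5 at D16S+ and 42.8 in iPSCs, and Epcam 19.6 at D9T- and 56.1 in iPSCs. Dsp stood apart, with no peak at D0, 7.06 at D3, 15.6 at D6T-, 812 over 28.3 kb at D9T-, 20.4 at D12S+, 7.96 at D16S+ and 102 in iPSCs. The D9T- library had 42.4% of its tags in peaks, the most of the 7, and the libraries on either side of it 7.50% and 1.07%, and the part of this library in that value was not tested.

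**Figure D5:**
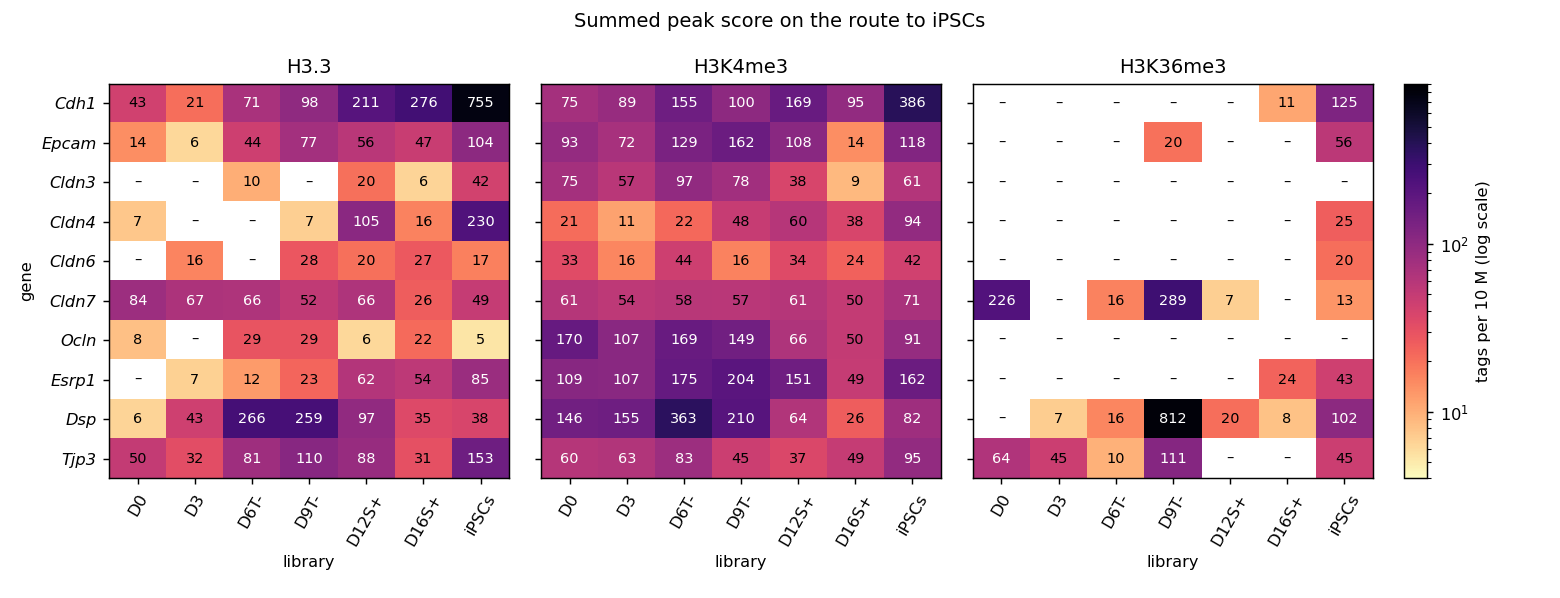
Summed peak score (colour on a log scale, and rounded numbers, in tags per 10 M) of H3.3, H3K4me3 and H3K36me3 for the 10 genes (rows) in the 7 libraries of the successful route (columns); a dash means no peak. The H3K4me3 panel is filled from D0 on, the H3.3 panel fills along the route, and the H3K36me3 panel is almost empty until iPSCs apart from Dsp, Cldn7 and Tjp3.

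The same genes were read in transdifferentiation, where the end point is no epithelium. H3.3 peaks lay over 7 of the 10 in MEF, against 53.3% of all genes, over all 10 in D4, against 72.1%, over none in cKit+, against 33.2%, and over 4 in cKit-, against 31.8%. In D4, 8 of 10 were at least 2 times higher than in MEF or gained a peak, against 69.5% of all genes, in a library with 37.2% of tags in peaks against 7.64% in MEF. Cdh1 held 12.1 in MEF, 221 over 19.0 kb in D4, no peak in cKit+ and 11.3 in cKit-. Dsp had no peak in MEF, 51.9 in D4 and none in the sorted cells. Tjp3 held 20.3, 101, none and 15.6 in MEF, D4, cKit+ and cKit-. Part of the D4 values came from peaks that touched another gene. Without such peaks, D4 held 32.7 at Tjp3, 17.7 at Cldn4, 16.5 at Dsp, 4.86 at Cldn6 and none at Cldn7. Tjp3 and Cldn7 then no longer counted as higher in D4 than in MEF, whereas Cdh1, Ocln and Esrp1 kept their D4 sums. The D0 and MEF libraries, the day 0 samples of the 2 conversions, held 42.7 and 12.1 at Cdh1, with 19.1% and 7.64% of tags in peaks.

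Other genes of cell junctions did not all follow. Of 62 further claudins, tight junction, adherens junction, desmosome and regulator genes, 27 were higher for H3.3 in iPSCs than in D0 and 19 lower. Over all genes 17.4% were higher and 29.4% lower, the shares to set beside these counts and those of each list. The count of lower genes was near its share. The 14 epithelial regulators came nearest to the 10 genes, with 10 higher, 1 lower and a median log2 difference of 3.48. Of 15 other claudins 5 were higher and 4 lower, of 14 other tight junction genes 8 and 5, of 9 adherens junction genes 1 and 4, and of 10 desmosome and cytolinker genes 3 and 5. Among those higher, the most H3.3 per kb of window in iPSCs was on Elf3, an epithelial transcription factor, which had no peak in D0 and 138 in iPSCs. Jup, encoding plakoglobin, went from 161 to 338, Pard6b, a polarity protein, from 80.5 to 229, Esrp2, the paralog of Esrp1, from 20.6 to 78.3, and Spint1, a protease inhibitor, from 33.6 to 110. Among those lower, the most per kb in D0 was on Ctnnb1, encoding beta-catenin, which fell from 529 to 130, followed by Prss8, Cldn22, Cldn12 and Ctnna1, encoding alpha-catenin, with 752 and 349.

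Mesenchymal genes went the other way in every case: all 15 were lower in iPSCs than in D0, against 29.4% of all genes. Their median log2 difference was -6.67. The highest per kb in D0 were Col1a1 (582 in D0), Vim (296 to 34.6), Snai1 (176 to 85.6), Acta2 (350 to no peak) and Col1a2 (707 to no peak). Snai1 encodes a repressor of Cdh1. Over the 12 reprogramming libraries, the genes whose H3.3 sums were ranked most like those of Cdh1 were Wbscr27, the neighbour of Cldn4 (Spearman rho 0.99), Fbxo36 (0.98) and Mkrn1 (0.98), out of 13303 genes with a peak in at least 6 libraries. Of the 10 genes, Esrp1 (0.90) and Cldn4 (0.87) were nearest to Cdh1 in rank, and Dsp (0.01), Ocln (-0.21) and Cldn7 (-0.34) farthest. For Epcam the most alike were Gm9887 (0.90), Helb (0.89) and Zfp706 (0.87). These are descriptions over 12 libraries that share their cells of origin and differ in enrichment.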

How the data were processed

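The files were 30 peak lists, 1 per ChIP-Seq library (16 H3.3, 7 H3K4me3, 7 H3K36me3); 16 input libraries were not analysed here on their own. The authors mapped reads to mm9 with STAR, dropped multi-mapping reads and reads with over 2 mismatches and called peaks with HOMER in histone style (versions not given in the sources used here). Each library was called separately against an input. The peak score is a signal that the authors deposited, the normalized tag count per 10 M tags, with input neither subtracted nor divided by length. Beside it the authors deposited a ratio, the fold of each peak over its input, which is at least 2 for H3.3 and 4 for the other marks. The deposited p-value against input rests on a Poisson model with a limit of 1e-04.

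Peaks touching a gene window (GENCODE vM1, mm9; 1 kb on each side) were summed with python 3.11.15 and pandas 2.3.3; the sums were tested on simulated peaks. Tags behind a sum, for Poisson intervals, are the score times the library's tags over 10 M. With 1 library per group no test across genes was run; routes were compared by a two-sided exact sign-flip test over 4 days on log2(sum + 1). A called change is a factor of at least 2, or a peak against none. The members and the other lists were chosen with earlier results of these data known. Genes outside the 10 were named by score per kb of window, the 5 highest of those called in each direction, the 5 highest mesenchymal genes in D0, and the 3 most alike by rank; members singled out within a paragraph were picked after their values were seen. The alternatives were equal numbers of peaks per library by 2 rankings, a fold of at least 4, other ways to assign peaks to windows and scaling to the score in peaks.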

Additional observations from a re-analysis of the deposited data

How the results depend on the processing

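Each group was 1 library, so no replicate block could be fitted; the sorted fractions were paired by day in the sign-flip test. Under the alternatives, 95 counts of genes kept within 1.5 times of the value reported and 24 did not; of the values of single genes 63 kept, 35 moved and 3 turned their sign. With H3.3 peaks of 4 times the input or more, the 10 genes with an H3.3 peak numbered 4 in D0 and 4 in iPSCs, 3 were higher in iPSCs, 0 were higher on day 9, 3 on day 12 and 0 on all 4 days, and the log2 ratio of Cdh1 was -2.00. With equal numbers of top-scoring peaks, 3 had a peak in D0, 5 had one in iPSCs and none in D0, 1 was higher on all 4 days, 3 had a peak in MEF and 5 in D4. With equal numbers ranked by score per kb, 5 were higher on day 16, 1 had H3K36me3 in D0, 3 had a peak in MEF and 4 in D4, and the log2 ratio of Epcam was -0.48. With a peak counted by its midpoint, 3 were higher on day 12, 1 on all 4 days, and 1 had H3K36me3 in D0. Without flanks, 1 was higher on all 4 days. With the part of each peak inside the window, the log2 ratio of Cldn7 was 0.75. Scaled to the score in peaks, 6 were higher on day 16 and 5 on all 4 days. 3 alternatives were chosen after seeing the data. Without peaks that touch another gene, 5 were higher on day 16 and 0 had H3K36me3 in D0, and without day 16, 4 were higher on the other 3 days. Apart from what an alternative's own construction removes, the cause was not tested. Calls of absence and low sums are weak where few tags lay in peaks, as in cKit+, cKit-, H3K4me3 of D16S+ and H3K36me3 of D12S+ and D16S+. The cKit libraries were deep.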
